A study of Rattus norvegicus with 3 samples.

Results

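Zinc transporters and metallothioneins, with the genes that carry copper and that read metal levels, were followed through 3 stages of the rat enamel organ. The members were chosen by name: every gene in the authors' deposited table whose symbol begins with Slc30a or Slc39a and a number, the metallothioneins written as Mt with a number from 1 to 4 and at most 1 small letter, and Mtf1, Mtf2, Slc31a1, Slc31a2, Atp7a, Atp7b and Atox1. This gave 31 of 16516 genes: 8 zinc exporters, 13 zinc importers, 3 metallothioneins, 5 genes of copper transport and 2 named for the metal response. Slc30a2, Slc30a8, Slc39a12 and Mt4 were not analysed here, and 3 members had a mean over the stages under 1.

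The groups were cervical loop cells, which hold the dividing progenitors at the growing end of the incisor, secretory ameloblasts, which lay down enamel matrix, and maturation ameloblasts, which follow them. All came from dissected enamel organs of Wistar Hannover rats, 5 animals per the labels, with no treatment or transgene and no age given there. Each stage is 1 deposited least-squares mean per gene over its libraries, in a unit the headers do not state. No value per library stood behind it here, so the spread between animals is known here just from the deposited p-values, and no SD is given. Levels are not compared between genes, since it is not stated whether they are per length. A deposited false discovery rate (FDR) under 0.05 was taken as passing, and the direction was read from the stage means. All means, folds and FDR printed come from the authors' deposited table.

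Zinc moves through cells by 2 families with opposite directions. Slc39a (ZIP) proteins bring zinc into the cytosol from outside or out of organelles, and Slc30a (ZnT) proteins move it out of the cytosol or into organelles. Metallothioneins are small cysteine-rich proteins that bind zinc and copper, and the zinc-sensing factor Mtf1 turns on their genes through short DNA motifs, the metal response elements. Copper enters through Slc31a1, is passed on by the chaperone Atox1 and is pumped into the secretory pathway by Atp7a and Atp7b. In enamel, the matrix protease Mmp20 and alkaline phosphatase are zinc enzymes.

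The labelled cells were checked against their markers. The summed means of Amelx, Ambn, Enam and Mmp20 were 2920 in cervical loop, 112877 in secretory and 5621 in maturation samples. Those of 5 maturation markers were 83.8, 554 and 5570 in the same order, and those of 4 genes of dividing cells 545, 71.5 and 66.2. Markers of other cells moved too. The 9 myeloid markers summed to 243, 209 and 701, and 7 of the 9 passed upward in maturation against secretory cells, with none at or under a mean of 0.1 in any stage. The 5 genes listed as stratum intermedium markers, for the epithelial layer beside the ameloblasts, summed to 972, 1578 and 3382. In secretory against cervical loop cells 3 of 5 passed upward, and in maturation against secretory cells 3 upward and 1 downward. The 3 were Krt14, Krt5 and Alpl, with maturation means of 1691, 1122 and 491, which make up most of the sum. Notch1 had 81.5, 69.5 and 54.2 and passed downward in maturation against secretory cells. Hes1 had 20.2, 21.1 and 23.6 and passed in no pair. The sum is therefore not read as the amount of that layer. The 6 measured endothelial markers summed to 138, 179 and 273, with 3 passing upward in maturation against secretory and 5 in maturation against cervical loop cells. The 7 mesenchyme markers summed to 9800, 10379 and 13982. Of these, 1 passed upward and 1 downward in secretory against cervical loop cells. Upward calls numbered 3 in maturation against secretory and 4 in maturation against cervical loop cells, with 0 downward. The 6 odontoblast and bone markers summed to 374, 150 and 135, with 1 passing downward in maturation against secretory and 2 in maturation against cervical loop cells. Muscle markers summed to 2.82, 6.49 and 114, with 0 of 5 passing. The part of these other cells in the results for secretory or maturation cells was not tested. In these bulk samples a change in the number of cells of a type and a change in RNA per cell cannot be told apart.

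Across the 31 genes, 23 passed in at least 1 of the 3 pairs of stages (74.2%, against 72.1% of all genes), which is near the background. Their direction was uneven in both pairs against the cervical loop, and near even in maturation against secretory cells. In secretory against cervical loop cells 11 rose and 2 fell (41.9%, against 41.8% of all genes), where 16.5% of all genes were higher and 25.2% lower. In maturation against secretory cells 10 rose and 11 fell (67.7%, against 42.9% of all genes), where 21.8% of all genes were higher and 21.1% lower. In maturation against cervical loop cells 12 rose and 6 fell (58.1%, against 57.8% of all genes), where 24.1% were higher and 33.7% lower. The median log2 ratio of the 31 genes was 0.30, 0.0012 and 0.020 in these pairs, and that of all genes -0.14, 0.0046 and -0.12. Changes against the cervical loop are to be read relative to those shifts of all genes.

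**Figure D1:**
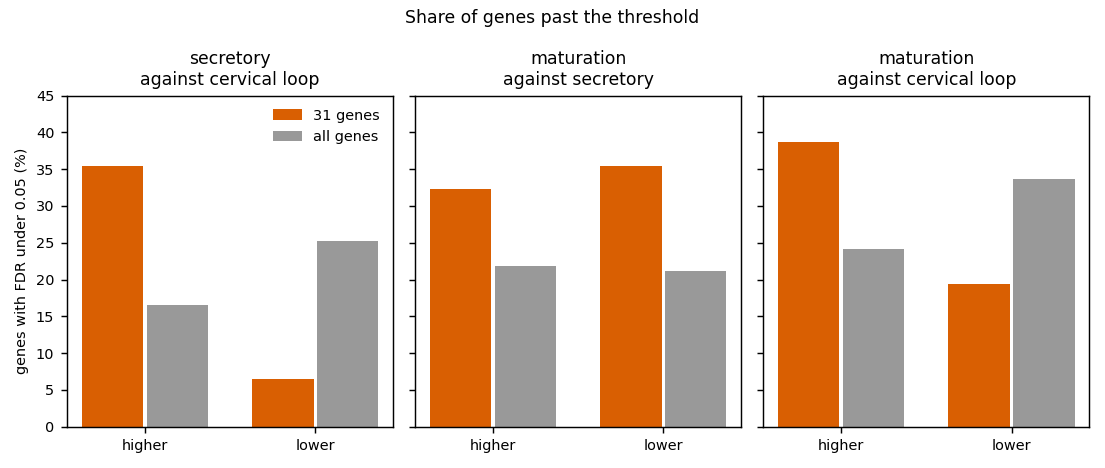
Share of genes with a deposited FDR under 0.05 (y axis, percent) among the 31 genes and among all 16516 genes, by direction, in each pair of stages. In secretory against cervical loop cells 35.5% of the 31 genes were higher and 6.45% lower, against 16.5% and 25.2% of all genes.

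Read by stage, 10 members were higher in maturation than in both other stages (32.3%, against 14.6% of all genes) and 8 were higher in secretory cells than in both (25.8%, against 7.99%). Mtf2 alone was higher in the cervical loop than in both other stages (3.23%, against 18.6% of all genes). Slc31a1 alone was lower in secretory cells than in both (3.23%, against 6.20%), with a weak call against the cervical loop (deposited FDR = 0.0441). Atp7b, Slc30a10, Slc39a4, Slc39a10 and Slc39a11 were lower in maturation than in both (16.1%, against 13.7%). The libraries of a stage enter both comparisons behind each such shape, so its 2 calls are not independent. The plot of stage means shows these shapes gene by gene.

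**Figure D2:**
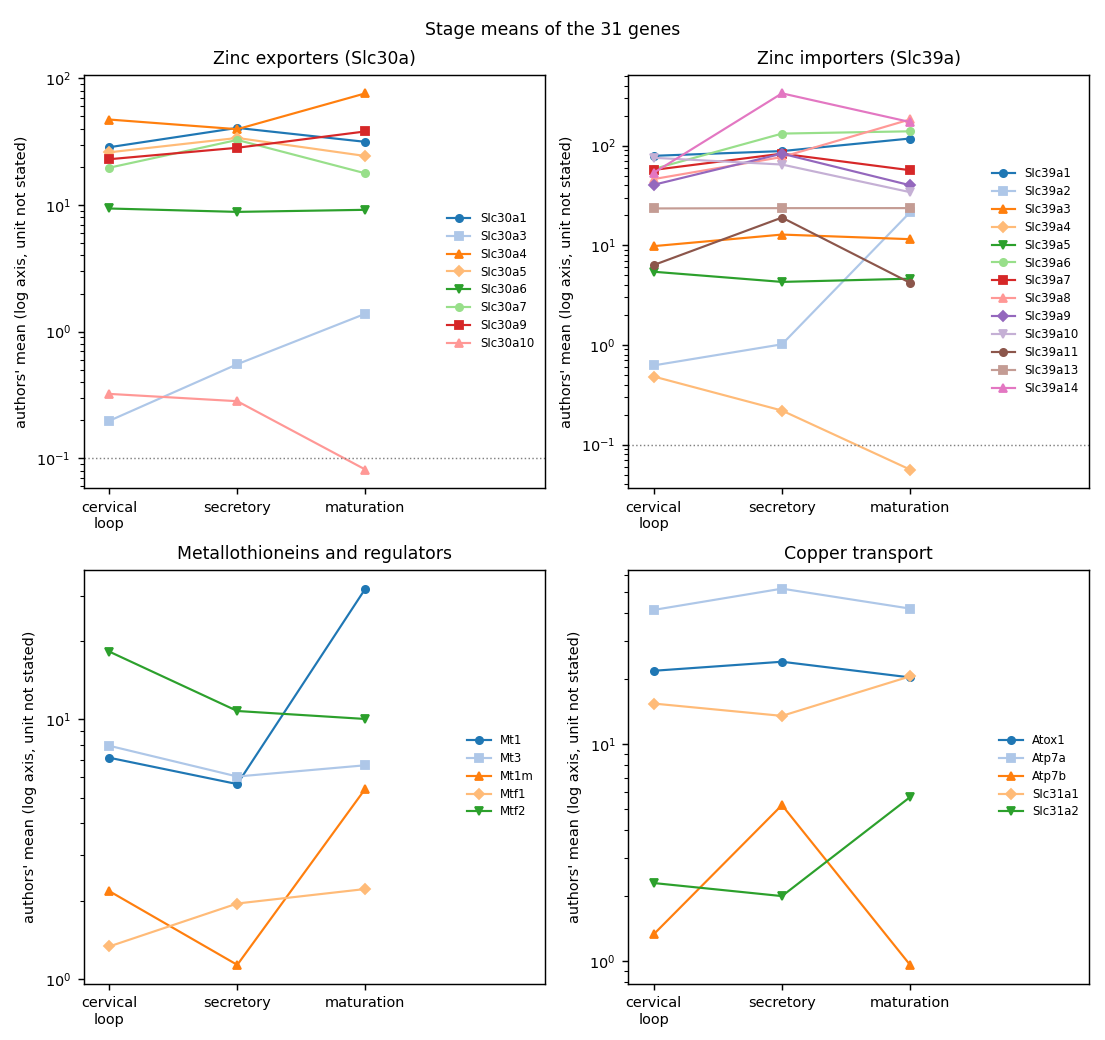
Authors' mean of each of the 31 genes (y axis, log scale, unit not stated) in the 3 stages (x axis), with a line per gene and a panel per role. The dotted line marks a mean of 0.1, under which Slc30a10 and Slc39a4 lay in maturation; Slc39a14 peaks at 334 in secretory and Slc39a2 reaches 21.4 in maturation samples.

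Importers of the plasma membrane had several shapes. Slc39a14, which carries zinc, iron and manganese, stood at 53.4 in cervical loop, 334 in secretory and 172 in maturation samples. It was 6.25-fold higher in secretory than in cervical loop cells (deposited FDR = 0.000470) and 1.94-fold lower in maturation than in secretory cells (deposited FDR = 0.00650). Maturation cells stayed 3.22-fold above the cervical loop (deposited FDR = 0.000514), so all 3 stages stood apart, with the secretory stage on top.

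Slc39a2, a zinc importer described in human skin keratinocytes, showed another shape. Its means were 0.623, 1.01 and 21.4 in cervical loop, secretory and maturation samples. Maturation was 21.1-fold above secretory cells (deposited FDR = 0.00274) and 34.4-fold above the cervical loop (deposited FDR = 0.00231), while the 2 earlier stages did not differ past the threshold (deposited FDR = 0.770). With 1 added to each mean these folds were 11.1 and 13.8, since both lower means are small.

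Slc39a8, which takes up zinc, manganese, iron and cadmium and is the closest relative of Slc39a14, had means of 46.1, 76.7 and 183 from cervical loop to maturation. It was 2.38-fold higher in maturation against secretory cells (deposited FDR = 0.00840) and 3.96-fold higher than in the cervical loop (deposited FDR = 0.00101). Secretory against cervical loop cells did not pass (76.7 against 46.1, deposited FDR = 0.0656). The pair thus differed in their latest step: Slc39a14 was lower in maturation than in secretory cells, and Slc39a8 was higher. Markers of other cells moved with Slc39a2 and Slc39a8. In maturation against secretory samples the summed mean was 701 against 209 for myeloid and 273 against 179 for endothelial markers. For mesenchyme markers it was 13982 against 10379. For the genes listed for the stratum intermedium it was 3382 against 1578, though Notch1 of that list fell. Maturation ameloblast markers moved too, with 5570 against 554. The part of these cells in the results for Slc39a2 and Slc39a8 was not tested.

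Slc39a1, a broadly used importer of the cell surface, moved less, with 78.9, 88.0 and 118. Maturation stood 1.34-fold above secretory (deposited FDR = 0.0110) and 1.49-fold above cervical loop cells (deposited FDR = 0.00187). Its near relative Slc39a3 had 9.79, 12.8 and 11.5 and passed in no pair.

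Slc39a6 and Slc39a10, a pair of related importers whose proteins are known to bind each other in mouse cells, went opposite ways. Slc39a6 had means of 58.3, 132 and 139. It was 2.26-fold higher in secretory (deposited FDR = 0.00319) and 2.39-fold higher in maturation than in cervical loop cells (deposited FDR = 0.00121), and the later stages did not differ past the threshold (deposited FDR = 0.674). Slc39a10 had 75.3, 64.5 and 34.1. Its fall in maturation was 1.89-fold against secretory (deposited FDR = 0.00287) and 2.21-fold against cervical loop cells (deposited FDR = 0.000861), with no call between the 2 earlier stages (deposited FDR = 0.266).

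Slc39a4, the importer of intestinal zinc uptake, was near the bottom of the measured range. It had means of 0.481, 0.220 and 0.0561, with maturation at the floor of 0.1 or less, against which no fold is given. Maturation was lower than secretory (deposited FDR = 0.0267) and than cervical loop cells (deposited FDR = 0.00286). Slc39a5, a basolateral importer of gut and pancreas in the mouse, had 5.42, 4.29 and 4.61 and passed in no pair.

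Several importers are placed inside the cell. Slc39a11, known from the Golgi and nucleus, had 6.34, 18.9 and 4.20. It was 2.99-fold higher in secretory than in cervical loop cells (deposited FDR = 0.000623) and 4.51-fold lower in maturation than in secretory cells (deposited FDR = 0.000198). Maturation also lay 1.51-fold below the cervical loop (deposited FDR = 0.00637). Its gene model overlaps those of Cog1, Sstr2 and Trnaa-ugc10 in RefSeq, and further models with no gene name. The strand setting of the counting is not given in the sources used here. Cog1 had 19.1, 22.6 and 20.01 and Sstr2 0.750, 0.187 and 0.175, and neither showed a secretory peak of that size. No values of the other overlapping models were at hand, and the part of shared reads was not tested. In all, 9 of the 31 members overlap another gene model in RefSeq, so their reads may be shared. Among them are Slc39a5 with Ankrd52, and Mt1m, Slc30a10, Slc39a8, Slc39a9, Slc39a10 and Slc39a11 with models that have no gene name.

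Slc39a9, a Golgi importer, had 40.4, 82.9 and 39.97. It was 2.05-fold higher in secretory than in cervical loop cells (deposited FDR = 0.000687) and 2.07-fold lower in maturation than in secretory cells (deposited FDR = 0.000436). Cervical loop and maturation means did not differ past the threshold (deposited FDR = 0.858). Slc39a7, which releases zinc from the endoplasmic reticulum, had 57.0, 82.9 and 56.6. The rise in secretory over cervical loop cells was 1.45-fold (deposited FDR = 0.0119) and the fall in maturation below secretory cells 1.47-fold (deposited FDR = 0.00785). Slc39a7 overlaps Rxrb in RefSeq, whose means of 22.2, 17.3 and 15.8 had no peak in secretory cells. Slc39a13, an importer of the early secretory pathway tied to connective tissue in humans, was flat at 23.4, 23.5 and 23.6.

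Exporters of the same compartments were split. Slc30a7, which loads zinc into the early secretory pathway, had 19.7, 32.6 and 17.8. It was 1.66-fold higher in secretory than in cervical loop cells (deposited FDR = 0.00308) and 1.83-fold lower in maturation than in secretory cells (deposited FDR = 0.00125). Slc30a5, which works as a complex with Slc30a6 to supply zinc to alkaline phosphatases, had 26.1, 33.8 and 24.4. The secretory level was 1.30-fold above the cervical loop (deposited FDR = 0.0374), and maturation was 1.39-fold below secretory cells (deposited FDR = 0.0147). Its partner Slc30a6 had 9.39, 8.82 and 9.16 and passed in no pair.

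Set out by place in the cell, a grouping made after the values were seen and so not tested, the 7 transporters of the endoplasmic reticulum and Golgi had 5 higher and 0 lower in secretory against cervical loop cells, where 16.5% of all genes were higher and 25.2% lower. In maturation against secretory cells they had 0 higher and 5 lower, where 21.8% of all genes were higher and 21.1% lower. The other 14 zinc transporters had 5 higher (35.7%, against 16.5% of all genes) and 0 lower in the earlier step, and 6 higher (42.9%, against 21.8%) and 5 lower (35.7%, against 21.1%) in the later step. The 7 were Slc30a5, Slc30a6, Slc30a7, Slc39a7, Slc39a9, Slc39a11 and Slc39a13. Slc30a4, a vesicle transporter that was higher in maturation than in secretory cells, was counted among the other 14. The lack of such genes among the 7 depends on that placing, and no conclusion is drawn from the split. Both groups held genes that rose in secretory cells.

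Slc30a1 is the zinc exporter of the plasma membrane and a target of Mtf1 in the mouse. It had 28.6, 40.6 and 31.5. Secretory cells were 1.42-fold above the cervical loop (deposited FDR = 0.0138), and maturation was 1.29-fold below secretory cells (deposited FDR = 0.0365). Cervical loop and maturation means did not differ past the threshold (deposited FDR = 0.272).

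Exporters of vesicles and mitochondria were higher in maturation. Slc30a4, a vesicle transporter that puts zinc into milk in the mouse, had 47.3, 39.7 and 76.2. It was 1.92-fold higher in maturation against secretory (deposited FDR = 0.00371) and 1.61-fold higher than in cervical loop cells (deposited FDR = 0.00889). Slc30a9, which moves zinc out of mitochondria, had 23.0, 28.3 and 38.1. It was the other member besides Slc30a3 that rose at each step, 1.23-fold in secretory over cervical loop (deposited FDR = 0.0400) and 1.35-fold in maturation over secretory cells (deposited FDR = 0.0111).

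Slc30a3, known for filling synaptic vesicles with zinc, was low, at 0.198, 0.553 and 1.39. Its secretory mean was 2.80-fold above the cervical loop (deposited FDR = 0.00522) and its maturation mean 7.01-fold above it (deposited FDR = 0.000228). With 1 added to each mean these folds were 1.30 and 1.99. Slc30a10, a manganese exporter in humans, had 0.323, 0.282 and 0.0815. Maturation was at the floor, and lower than in secretory (deposited FDR = 0.0346) and cervical loop cells (deposited FDR = 0.0154).

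**Figure D3:**
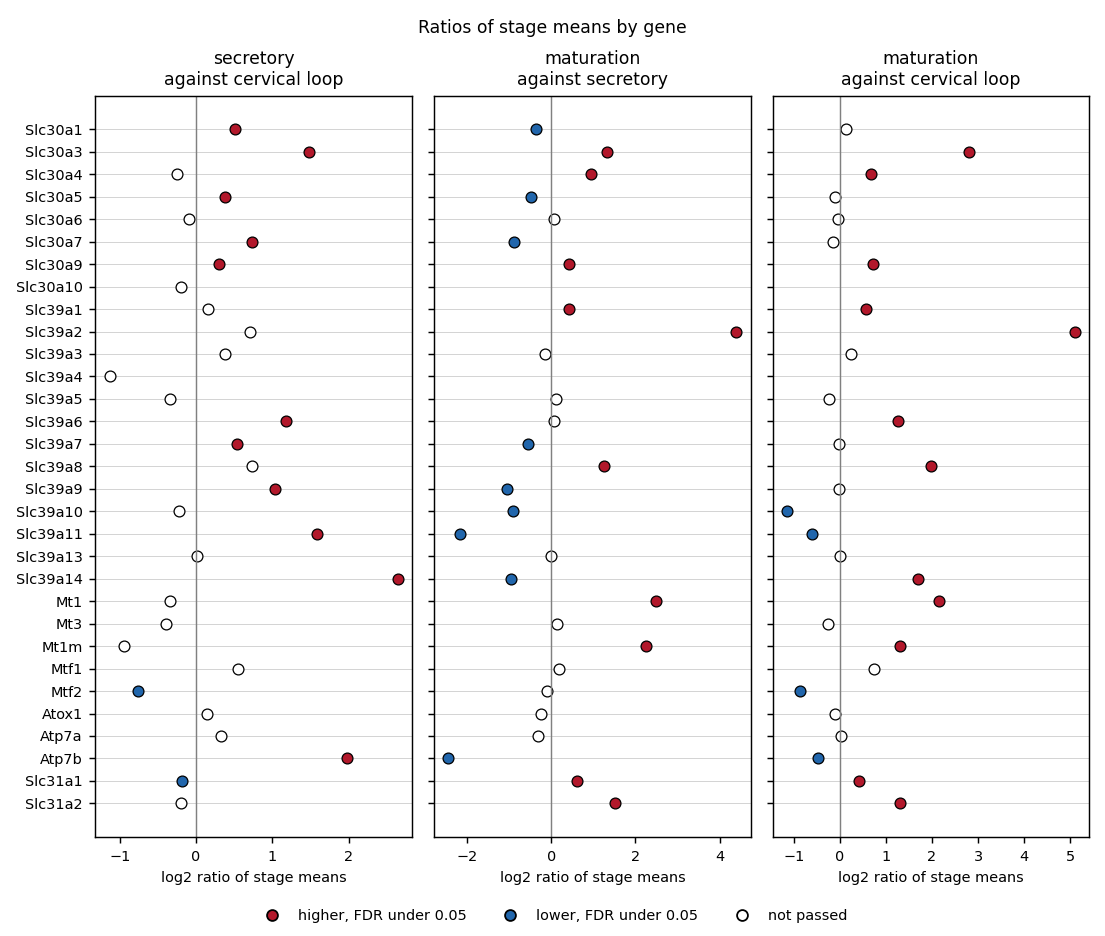
Log2 ratio of stage means (x axis) for the 31 genes (rows, by role) in each pair of stages, the later stage over the earlier. Red and blue points passed at a deposited FDR under 0.05, white points did not, and Slc30a10 and Slc39a4 have no point where their maturation mean was at the floor; the zinc importers span from Slc39a11 at -2.17 to Slc39a2 at 4.40 in maturation against secretory cells.

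Of the 3 metallothioneins, Mt1 and Mt1m were higher in maturation and Mt3 did not pass. Mt1 had means of 7.12, 5.64 and 31.9 in cervical loop, secretory and maturation samples. It was 5.66-fold higher in maturation against secretory (deposited FDR = 0.00313) and 4.48-fold higher than in cervical loop cells (deposited FDR = 0.00310). The 2 earlier stages did not differ past the threshold (deposited FDR = 0.646).

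Mt1m had 2.18, 1.14 and 5.41, and was 4.77-fold above secretory (deposited FDR = 0.00505, or 3.003-fold with 1 added to each mean) and 2.48-fold above cervical loop cells in maturation (deposited FDR = 0.0244). RefSeq lists Mt1m as a pseudogene, so reads may be split between it and its relatives, and its value is uncertain. Mt2A, which the pattern of the rule misses by its capital letter, had 3.01, 1.32 and 8.69. It fell 2.27-fold in secretory against cervical loop cells (deposited FDR = 0.0109) and stood 6.56-fold above secretory (deposited FDR = 0.000465, or 4.17-fold with 1 added) and 2.89-fold above cervical loop cells in maturation (deposited FDR = 0.00180).

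Mt3, a metallothionein best known from brain, passed in no pair. It had 7.92, 6.03 and 6.66, with a deposited FDR of 0.966 in secretory against cervical loop, 0.846 in maturation against secretory and 0.872 in maturation against cervical loop cells. The myeloid markers that rose in maturation moved with Mt1 and Mt2A as well, and their part was not tested.

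Promoters of these genes are shown because metal response elements are how zinc is known to reach metallothionein genes. Each sequence is the 250 bases before the RefSeq gene start on build GRCr8, read 5′ to 3′ on the gene's strand, which is not the build the deposited values were aligned to. Capitals mark the metal response element cores TGCACNC and TGCGCNC, searched on both strands. Mt1 lies at chr19:10832976-10833225, minus strand. Mt2A lies at chr19:10838709-10838958, minus strand. Mt3 lies at chr19:10856081-10856330, minus strand. Slc30a1 lies at chr13:106021769-106022018, plus strand.
Mt1: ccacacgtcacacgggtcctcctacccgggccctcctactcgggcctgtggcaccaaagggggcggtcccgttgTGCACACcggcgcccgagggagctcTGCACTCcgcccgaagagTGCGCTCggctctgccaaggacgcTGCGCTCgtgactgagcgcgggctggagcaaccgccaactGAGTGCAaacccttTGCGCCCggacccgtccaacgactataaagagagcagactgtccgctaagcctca
Mt2A: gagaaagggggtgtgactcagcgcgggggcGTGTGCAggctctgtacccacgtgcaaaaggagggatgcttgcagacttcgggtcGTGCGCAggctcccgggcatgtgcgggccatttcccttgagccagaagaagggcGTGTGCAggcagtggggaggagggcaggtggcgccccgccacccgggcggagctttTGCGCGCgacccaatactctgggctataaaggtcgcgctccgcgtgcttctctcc
Mt3: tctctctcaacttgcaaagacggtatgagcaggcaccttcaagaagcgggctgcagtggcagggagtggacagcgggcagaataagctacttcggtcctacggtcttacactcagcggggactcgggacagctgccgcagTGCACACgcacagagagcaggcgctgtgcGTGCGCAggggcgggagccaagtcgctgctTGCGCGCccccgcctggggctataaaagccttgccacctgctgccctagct
Slc30a1: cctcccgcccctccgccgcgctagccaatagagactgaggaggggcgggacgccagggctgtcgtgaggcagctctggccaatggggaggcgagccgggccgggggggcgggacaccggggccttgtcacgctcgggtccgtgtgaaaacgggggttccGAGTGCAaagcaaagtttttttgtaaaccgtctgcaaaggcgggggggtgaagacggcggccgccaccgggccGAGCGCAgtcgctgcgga

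In the window from 250 bases before to 50 after the start, Mt1 held 6 cores, Mt2A 4, Mt3 3 and Slc30a1 2. At least 6 cores were found in 0.0388% of the 33469 promoters of the table, at least 4 in 0.439%, at least 3 in 1.68% and at least 2 in 6.36%. Cores were thus present in Mt3, which passed in no pair, as in Mt1, which rose in maturation. Of the 31 members, 26 had a promoter in the table, and 12 of these held at least 1 core (46.2%, against 24.2% of all promoters). Slc39a2, Slc39a8, Slc39a9 and Slc31a1 had no such letters in the window, which says nothing of whether Mtf1 acts on them. Slc39a7 had 4 cores and Slc30a4 3, and cores that overlap, as in Slc39a7, Slc39a11 and Slc30a5, were each counted.

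Neither gene named for the metal response passed upward in any pair. Mtf1 itself was low, at 1.34, 1.96 and 2.22, highest in maturation, with a deposited FDR of 0.581 in maturation against secretory and 0.769 in maturation against cervical loop cells. Mtf2, which despite its name acts with the Polycomb repressor complex, had 18.3, 10.8 and 10.0. It fell 1.69-fold in secretory (deposited FDR = 0.00154) and 1.82-fold in maturation against cervical loop cells (deposited FDR = 0.000407). Genes of dividing cells fell in the same pairs, with a summed mean of 71.5 in secretory against 545 in cervical loop samples, and their part was not tested.

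Copper genes did not move together. Atp7b, a copper pump of the secretory pathway that is mutated in Wilson disease, had 1.33, 5.24 and 0.961. It was 3.93-fold higher in secretory than in cervical loop cells (deposited FDR = 0.000599) and 5.45-fold lower in maturation than in secretory cells (deposited FDR = 0.000242, or 3.18-fold with 1 added to each mean). Maturation was also 1.39-fold below the cervical loop (deposited FDR = 0.0332). Atp7a, the related pump mutated in Menkes disease, had 41.5, 52.0 and 42.1 and passed in no pair, with a deposited FDR of 0.0833 in secretory against cervical loop cells. Whether the changes of the 2 pumps differ was not tested.

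Copper uptake genes were higher in maturation. Slc31a1, the high-affinity copper importer, had 15.4, 13.5 and 20.5. It was 1.52-fold higher in maturation against secretory (deposited FDR = 0.000698) and 1.33-fold higher than in cervical loop cells (deposited FDR = 0.00175). Its call downward in secretory against cervical loop cells (deposited FDR = 0.0441) had a log2 ratio of -0.19, against a median of -0.14 over all genes. Slc31a1 overlaps Fkbp15 in RefSeq, which had 17.3, 18.5 and 23.9 and was also higher in maturation than in secretory cells (1.29-fold, deposited FDR = 0.0344). Slc31a2, a relative found on endosomes, had 2.29, 1.99 and 5.70, and was 2.86-fold higher in maturation against secretory (deposited FDR = 0.00284) and 2.49-fold higher than in cervical loop cells (deposited FDR = 0.00284). The chaperone gene Atox1 had 21.8, 24.0 and 20.3 and passed in no pair.

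The authors' isoform tables list 17 transcripts of 6 members. For isoform make-up, 0 of the 6 passed in any pair by the authors' test in Partek, where 1.19% of genes passed in secretory against cervical loop, 1.80% in maturation against secretory and 2.79% in maturation against cervical loop cells. At an unadjusted p under 0.05 the counts were 0, 1 and 2 of 6, where 11.4%, 11.4% and 14.4% of genes passed. Atp7b had the smallest p (0.00568 in maturation against cervical loop cells, deposited FDR = 0.116), followed by Slc39a6 (0.011, deposited FDR = 0.166).

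In secretory against cervical loop cells 5 of 17 passed (16.0% of all transcripts), in maturation against secretory cells 6 (17.0%) and in maturation against cervical loop cells 4 (25.1%). Both Atp7b transcripts were lower in maturation than in secretory cells. Atp7b-201 had 0.892 in maturation against 3.73 in secretory samples (4.18-fold, deposited FDR = 0.036), and Atp7b-202 had 0.109 against 1.55 (14.2-fold, deposited FDR = 0.000598). Atp7b-202 thus made up 10.9% of the gene's summed transcript means in maturation and 29.4% in secretory samples. The maturation mean of Atp7b-202 lay just above the floor of 0.1, so its fold and share are uncertain. For Atp7b the authors' test of make-up in Partek did not pass in this pair (p = 0.019, deposited FDR = 0.284). Both Slc39a6 transcripts were higher in maturation than in cervical loop cells, Slc39a6-201 with 50.9 against 28.3 (deposited FDR = 0.00888) and Slc39a6-202 with 89.3 against 28.6 (deposited FDR = 0.000141). Slc39a9-202, which held 95.2% of the gene's transcript signal in maturation, had 38.4 in maturation against 78.5 in secretory samples (deposited FDR = 0.0087). The same transcript did not pass in secretory against cervical loop cells (78.5 against 38.4, deposited FDR = 0.0779). Slc39a7-201 and Slc39a10-201, the main transcripts of their genes, passed in no pair. Slc39a7-203 and Slc39a7-204, which passed downward in maturation against secretory cells, held just 0.953% and 0.558% of the gene in maturation.

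**Figure D4:**
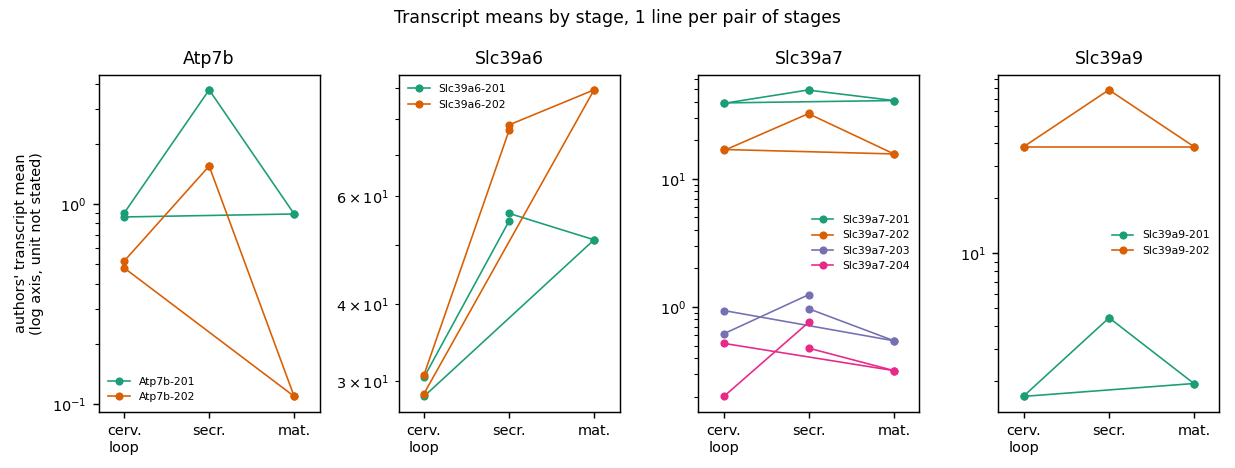
Authors' mean of each transcript (y axis, log scale, unit not stated) of Atp7b, Slc39a6, Slc39a7 and Slc39a9 in the 3 stages (x axis), with a colour per transcript and a line per deposited pair of stages, whose means can differ slightly between tables. Both Atp7b transcripts peak in secretory samples, and Atp7b-202 drops to 0.109 in maturation samples.

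Other genes of zinc and copper handling were taken from lists of known function, and up to 5 called genes a list are named by the size of their log2 ratio in maturation against secretory cells. Of 15 measured genes of the list for zinc and divalent metal handling outside the rule, 5 rose and 0 fell in secretory against cervical loop cells (33.3% called, against 41.8% of all genes). The list also held Hif1an, Keap1 and Nfe2l2, which do not carry metals, and Nfe2l2 was among those that rose in maturation. In maturation against secretory cells 6 rose and 2 fell (53.3%, against 42.9%), and in maturation against cervical loop cells 6 rose and 1 fell (46.7%, against 57.8%). The list's median log2 ratio was 0.37, 0.79 and 1.02, beside -0.14, 0.0046 and -0.12 for all genes.

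Trpm7, a channel kinase that passes magnesium, zinc and other divalent metals, had 138, 549 and 1464. It was 3.99-fold higher in secretory than in cervical loop cells (deposited FDR = 0.00402), 2.67-fold higher in maturation against secretory cells (deposited FDR = 0.00955) and 10.6-fold higher in maturation than in cervical loop cells (deposited FDR = 0.000287). Tmem165, a Golgi protein of manganese and calcium balance, had 28.9, 42.1 and 16.1, with maturation 2.62-fold below secretory cells (deposited FDR = 0.000401). Nfe2l2, a factor of the oxidative stress response, had 35.1, 45.5 and 93.1, and maturation stood 2.05-fold above secretory cells (deposited FDR = 0.00150). Slc11a2, which carries iron and other divalent metals, had 27.2, 68.7 and 137 and was 1.998-fold higher in maturation against secretory cells (deposited FDR = 0.00341). Mcoln1, a lysosomal channel that can pass zinc, had 8.78, 12.1 and 22.8, a 1.89-fold difference between maturation and secretory cells (deposited FDR = 0.000627).

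Of 25 measured genes of the zinc enzyme list, 5 rose and 3 fell in secretory against cervical loop cells (32.0% called, against 41.8% of all genes). Maturation against secretory cells gave 10 that rose and 3 that fell (52.0%, against 42.9%), and in maturation against cervical loop cells 10 rose and 3 fell (52.0%, against 57.8%). Their median log2 ratio was -0.14, 0.35 and 0.34. Not every gene of the list is an established zinc enzyme, Car8 and Pgap1 being exceptions. Pgap1 was among those that fell against the cervical loop, and Car8 among those that rose in maturation against secretory cells. The secretory mean of Car8, 0.0989, lay at the floor of 0.1 or less, so that call is uncertain. Mmp20 was 16.8-fold lower in maturation than in secretory cells (deposited FDR = 0.0104). The carbonic anhydrase gene Car6 was 7.85-fold higher in maturation against secretory cells (deposited FDR = 0.00849), Car2 was 4.77-fold higher (deposited FDR = 0.00781) and Car3 was 3.68-fold higher (deposited FDR = 0.000857). Enpp1, which makes pyrophosphate, was 5.86-fold higher (deposited FDR = 0.000256).

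Of 13 measured copper handling genes outside the rule, 4 rose and 1 fell in secretory against cervical loop cells (38.5% called, against 41.8% of all genes). Maturation against secretory cells gave 3 that rose and 2 that fell (38.5%, against 42.9%). In maturation against cervical loop cells 6 rose and 1 fell (53.8%, against 57.8%). Each share called in either direction was thus below that of all genes, but the directions were uneven. The shares that rose were 30.8%, 23.1% and 46.2% in these pairs, against 16.5%, 21.8% and 24.1% of all genes. Those that fell were 7.69%, 15.4% and 7.69%, against 25.2%, 21.1% and 33.7%. The list's median log2 ratio was 0.069, -0.086 and 0.34. Steap3, a reductase of iron and copper, had 6.31, 3.54 and 70.0 and was 19.8-fold higher in maturation against secretory cells (deposited FDR = 0.000426). Among genes of copper supply to cytochrome oxidase, Cox17 was 1.70-fold higher (deposited FDR = 0.0362), Cox11 1.37-fold higher (deposited FDR = 0.0471) and Cox19 1.39-fold lower in that pair (deposited FDR = 0.00520). Xiap, an inhibitor of caspases that also binds copper, was 1.17-fold lower (deposited FDR = 0.0195).

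Of 13 measured copper enzymes, 1 rose and 3 fell in secretory against cervical loop cells (30.8% called, against 41.8% of all genes). The 1 that rose was Aoc1, at 0.0513, 0.189 and 0.258, and it also rose in maturation against cervical loop cells. Its cervical loop mean lay at the floor of 0.1 or less, so both calls are uncertain. Maturation against secretory cells gave 5 that rose and 0 that fell (38.5%, against 42.9%). In maturation against cervical loop cells 3 rose and 2 fell (38.5%, against 57.8%). The shares called in either direction were again below those of all genes. The shares that rose were 7.69%, 38.5% and 23.1% in these pairs, against 16.5%, 21.8% and 24.1% of all genes. Those that fell were 23.1%, 0% and 15.4%, against 25.2%, 21.1% and 33.7%. The list's median log2 ratio was -0.53, 0.51 and 0.38. The 5 that rose in maturation against secretory cells were Sod3, an extracellular superoxide dismutase (3.03-fold, deposited FDR = 0.0211, at means of 0.702 in maturation and 0.231 in secretory samples), Loxl4, a collagen cross-linking oxidase (2.51-fold, deposited FDR = 0.0250), Pam, Sod1 and Heph. Pam, an enzyme that amidates secreted peptides, had 161, 98.5 and 234, with maturation 2.37-fold above secretory cells (deposited FDR = 0.000760). Sod1, the cytosolic superoxide dismutase, was 1.29-fold higher (deposited FDR = 0.0166). Heph, a copper oxidase of iron, had 60.5, 24.7 and 31.5 and was 1.28-fold higher in maturation against secretory cells (deposited FDR = 0.0212), though 1.92-fold lower in maturation than in cervical loop cells (deposited FDR = 0.000392).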

How the data were processed

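RNA was sequenced from cervical loop, secretory and maturation cells of rat enamel organs. Per the labels, RNA needed an integrity number of at least 7, 1 cervical loop sample was left out for this, with about 25000000 reads of 75 bases per library, read from a single end. Per the submitters' processing notes, STAR 2.5.3a, Partek and build rn6 were used. How genes were annotated, filtered, normalised and modelled is not given in the sources used here. Per the file headers, the authors deposited a least-squares mean per gene and stage, treated here as a score with no stated unit, with p-values and FDR per pair of stages. The deposited total per gene was matched by weighting the mean of cervical loop by 3.99, of secretory by 3.99 and of maturation cells by 5.01, which points to about 13 libraries, where the labels give 14 if each of 5 rats gave 3. Reads per gene are not known, so no counting interval is given.

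The deposited p-values were adjusted again by Benjamini-Hochberg over all 16516 genes of each pair with Python 3.11.15 and numpy 2.4.6, which gave the deposited FDR. The adjustment alone, not the deposited p-values, was tested on simulated p-values. Whether the p-values were computed on log values is not stated; where libraries vary widely, the direction of the means need not be that of the test. Folds are ratios of stage means, with none given against a mean of 0.1 or less. Members and gene lists were chosen with earlier results of these data known. Every member is accounted for; genes outside the rule were named from the lists if past the threshold, at most 5 per list and pair by size of log2 ratio (those of maturation against secretory cells are given), and Mt2A besides; genes overlapping a member were named after their values were seen. Alternatives were stricter thresholds, a fold of 2, Benjamini-Yekutieli adjustment, a filter on low means, a pseudocount of 1, other scalings, the stage lists, summed transcript means and a single strand for the motif.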

Additional observations from a re-analysis of the deposited data

How the results depend on the processing

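No paired analysis was possible because each stage is 1 deposited mean, and for the same reason no run without a library was made. Directions of called members were kept under both scalings and with the stage lists. These settings changed the log2 ratios and carried the adjusted p of the main run, so they do not test which members pass. For Slc31a1 in secretory against cervical loop cells the adjusted p was 0.0441 in the main run and with the stage lists. Its log2 ratio was -0.188 and -0.190 in the same order, and -0.046 with scaling by the median ratio of all genes. By Benjamini-Yekutieli adjustment of the deposited p-values its adjusted p was 0.454, and it also did not pass at 0.01. The call for Slc31a1 in that pair is therefore weak. All 93 calls of member and pair stood with the stage lists, which is no evidence that the calls are robust. A filter on genes with a mean of at least 1 changed none of the 84 calls it left.

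Counts of members called moved with stricter rules, as did the share of all genes called under the same rule, given in brackets. In secretory against cervical loop cells (13 called, 11 higher and 2 lower; 41.8% of all genes), 8 were called with 7 higher and 1 lower at an adjusted p under 0.01 (24.5%), 6 with 6 higher and 0 lower with a fold of at least 2 (17.3%), 7 with 6 higher and 1 lower by Benjamini-Yekutieli (17.9%), and 5 with 5 higher and 0 lower with a pseudocount of 1 and a fold of at least 2 (11.1%). In maturation against secretory cells (21 called, 10 higher and 11 lower; 42.9%), 7 were lower at 0.01 (12.8% lower), 11 were called with 6 higher and 5 lower with a fold of at least 2 (17.0%) and likewise by Benjamini-Yekutieli (19.0%), and 8 with 5 higher and 3 lower with the pseudocount (10.4%). In maturation against cervical loop cells (18 called, 12 higher and 6 lower; 57.8%), 11 were called with 3 lower with a fold of at least 2 (26.1%), 3 were lower by Benjamini-Yekutieli (19.0% lower), and 8 were called with 7 higher and 1 lower with the pseudocount (16.4%). In both pairs with maturation, the lower genes counted with a fold of at least 2 include Slc30a10 and Slc39a4. Their maturation means of 0.0815 and 0.0561 lay at the floor, so these 2 are uncertain.

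Sign changes were limited to pairs that had not passed. With scaling by the median ratio of all genes, log2 ratios became 0.054 for Slc30a6 in secretory against cervical loop, -0.0034 for Slc39a13 in maturation against secretory, and 0.022 for Atox1, 0.027 for Slc30a5, 0.089 for Slc30a6, 0.11 for Slc39a7 and 0.11 for Slc39a9 in maturation against cervical loop cells. Scaling by the 75th percentile gave 0.0043 for Slc39a7 in that pair. Summed transcript means kept each called direction. On the given strand alone, 34.6% of members held a metal response core, against 13.5% of all promoters.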
